A study of Rattus norvegicus with 6 samples.

Results

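Beta globin genes and the enzymes of heme synthesis were examined in rat renal cortex, the outer zone of the kidney with its glomeruli and proximal tubules. The 9 genes were Hbb, Hbb-b1, Alas2, Alas1, Alad, Urod, Cpox, Ppox and Fech, and every array probe whose RefSeq accession maps to one of these rat symbols was taken. These are 9 of the 15277 rat gene symbols with a probe, and they had 14 of the 61526 non-control probes used, all of them well above background on all 6 arrays. The arrays were single-colour (Cy3) Agilent arrays, 1 array per animal. The treated group was 3 male Sprague-Dawley rats dosed with o-anthranilic acid (1000 mg/kg/day), and the vehicle group was 3 male Sprague-Dawley rats dosed with corn oil, each for 4 weeks. All 6 animals were 5 weeks old at purchase and ate the same basal diet. o-Anthranilic acid is an aromatic amino acid that mammals also form from tryptophan. The series set out to compare renal cortex expression between these groups.

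Heme is built from glycine and succinyl-CoA along a path that starts in the mitochondrion, passes through the cytosol and ends in the mitochondrion, where ferrochelatase inserts iron. The first enzyme has a housekeeping form, Alas1, whose message heme itself lowers, and an erythroid form, Alas2, made in maturing red cells. Reticulocytes, the youngest circulating red cells, still carry globin and Alas2 messages, so a tissue with blood in its vessels yields both, whereas the other enzymes are made in tubule cells as well. In bulk tissue RNA, more cells of a type and more RNA per cell cannot be told apart.

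The sequences upstream of the start sites are shown for the genes on which the results turn. These genes are the beta globins and Alas2, whose means were higher in treated rats, and Alas1, the housekeeping counterpart. The sequences are the 250 bases before the annotated start, 5′ to 3′, from RefSeq on build GRCr8. Capitals mark matches on either strand to any of 4 motifs. The first is CACACCC, which erythroid factors of the Klf family are known to bind. The second is CCAAT, a common promoter element. The third is AGATAA, a site of GATA factors. The fourth is TATAAA, a form of the TATA box.

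Hbb (chr1:167663722-167663971, minus strand): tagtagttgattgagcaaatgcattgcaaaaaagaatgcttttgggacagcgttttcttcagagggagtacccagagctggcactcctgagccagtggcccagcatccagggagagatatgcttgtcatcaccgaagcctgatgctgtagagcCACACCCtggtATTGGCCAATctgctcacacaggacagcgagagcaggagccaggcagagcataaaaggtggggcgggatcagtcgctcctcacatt
Hbb-b1 (chr1:167643521-167643770, minus strand): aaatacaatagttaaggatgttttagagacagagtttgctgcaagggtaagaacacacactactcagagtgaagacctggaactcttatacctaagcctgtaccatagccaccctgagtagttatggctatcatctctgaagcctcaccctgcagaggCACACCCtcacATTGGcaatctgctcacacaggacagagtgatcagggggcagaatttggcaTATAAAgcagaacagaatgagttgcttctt
Alas2 (chrX:22895200-22895449, plus strand): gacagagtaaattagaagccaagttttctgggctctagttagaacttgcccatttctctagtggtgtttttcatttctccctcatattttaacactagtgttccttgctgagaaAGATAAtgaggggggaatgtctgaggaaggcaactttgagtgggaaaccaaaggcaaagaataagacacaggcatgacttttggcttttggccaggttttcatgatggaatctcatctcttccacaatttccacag
Alas1 (chr8:115768643-115768892, minus strand): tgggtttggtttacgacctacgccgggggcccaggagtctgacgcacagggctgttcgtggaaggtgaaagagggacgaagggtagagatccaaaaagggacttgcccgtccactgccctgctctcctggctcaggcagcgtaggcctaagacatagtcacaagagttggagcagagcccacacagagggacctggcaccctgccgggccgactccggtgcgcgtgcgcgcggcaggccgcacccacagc

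The first motif of Hbb, a CACCC box, lay 97 to 91 bases before the start and that of Hbb-b1 92 to 86 bases before it. Each was followed by a match to CCAAT read on the opposite strand, which in Hbb adjoined a second match on its own strand. Over the aligned pairs of bases the 2 beta globin windows were 64.9% identical (157 of 242). Alas2 held AGATAA at 136 to 131 bases before its start and Hbb-b1 held TATAAA at 30 to 25 bases, while the Alas1 window held none of these letters. The motifs were not confined to the globins and Alas2. Among the windows not printed, Fech held AGATAA on the opposite strand at 135 to 130 bases, and Alad and Ppox held CCAAT. Of the 8 members with a window, 4 held CCAAT and 2 held AGATAA. Among 33469 rat windows of the same length, the first motif was in 6.1%, the second in 34.0%, the third in 10.3% and the fourth in 12.9%. No matches of different motifs overlapped in the 4 windows printed, and a match describes letters only.

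All 5 beta globin probes and the Alas2 probe had higher means in treated than in corn oil rats, by 1.24- to 1.53-fold, while the 8 probes of the other 6 enzymes lay between -0.10 and 0.05 on the log2 scale. None of the 14 passed the test across all probes (limma with Benjamini-Hochberg adjustment over 41551 probes, threshold 0.05), and their adjusted p ranged from 0.462 to 0.997. The test called 0% of all probes, and no adjusted p was below 0.102. Of the 14 probes 3 had an unadjusted p under 0.05, against 8.45% of all probes. These 3, 2 of Hbb-b1 and 1 of Alas2, were higher in treated rats, against 3.42% of all probes, and 0 were lower, against 5.03%. That count was 6 without corn oil replicate 3 or treated replicate 1 and 1 without any other single array. The median log2 difference of the 14 probes was 0.05, beside -0.01 over all probes tested.

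**Figure D1:**
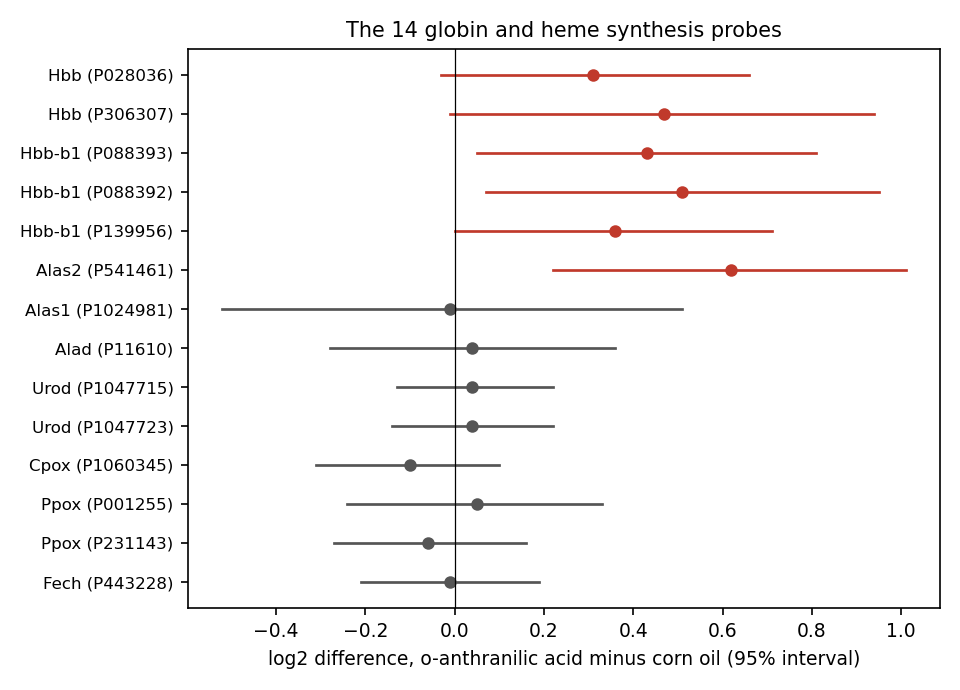
Log2 difference between treated and corn oil rats for each of the 14 probes, labelled by gene and by the end of the probe name. Points are differences of means (n = 3 arrays per group), bars are 95% intervals from limma, and red marks the globins and Alas2. The 6 red points lie between 0.31 and 0.62, and the grey points lie between -0.10 and 0.05.

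Hbb encodes the beta chain of adult hemoglobin. Values below are log2 signals relative to the 75th percentile of the array, in the order of replicates 1, 2 and 3, and each probe is read against itself only. The brighter Hbb probe (A_64_P028036, NM_033234) stood at 7.85, 8.07 and 8.14 in treated rats and at 7.53, 7.63 and 7.97 in corn oil rats. Its log2 difference was 0.31 ± 0.14 (SE, n = 3 per group; limma adjusted p = 0.616). The groups overlapped, because corn oil replicate 3 lay above treated replicate 1. The dimmer Hbb probe (A_44_P306307) stood at 3.04, 3.37 and 3.57 in treated rats and at 2.62, 2.77 and 3.19 in corn oil rats. Its difference was 0.47 ± 0.20 (SE; limma adjusted p = 0.592), and the same pair of animals overlapped.

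Hbb-b1, a further adult beta globin gene (NM_198776), had 3 probes with log2 differences of 0.43 ± 0.16, 0.51 ± 0.18 and 0.36 ± 0.15 (SE, n = 3 per group). Their limma adjusted p were 0.556, 0.548 and 0.590. Probe A_64_P088393 stood at 7.6, 7.88 and 7.91 in treated rats and at 7.19, 7.25 and 7.66 in corn oil rats. Probe A_64_P088392 stood at 7.36, 7.72 and 7.72 in treated rats, against 6.88, 6.97 and 7.44 in corn oil rats. On both probes corn oil replicate 3 was above treated replicate 1 and below the other treated animals. Probe A_44_P139956 gave 7.33, 7.59 and 7.65 in treated rats and 6.99, 7.08 and 7.43 in corn oil rats, in the same order. Globin genes are close copies of each other, so here and for the other globins the share of a probe's signal that comes from another family member is uncertain.

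The 5 beta globin probes ordered the animals almost alike. Measured from the corn oil mean of each probe, their median was 0.17, 0.51 and 0.54 in treated replicates 1, 2 and 3 and -0.18, -0.09 and 0.29 in corn oil replicates 1, 2 and 3. Centred profiles of any 2 beta globin probes differed by a root mean square of 0.025 to 0.114 on the log2 scale, against 0.105 to 0.173 between a beta globin probe and the Alas2 probe. Within the corn oil group alone the globin probes spanned 0.44 to 0.56, and for each of the 5 that span was wider than the difference between the group means of the same probe. Without corn oil replicate 3 the log2 differences of the 5 probes were 0.44 to 0.68, and without corn oil replicate 1 they were 0.22 to 0.40. Without corn oil replicate 3, 7 of the 14 member probes did not overlap between the groups, against 25.7% of all probes, namely the 5 beta globin probes and Alas2, higher in treated rats, and 1 Ppox probe, lower. Without treated replicate 1 the count was 6, against 23.3% of all probes. It was 3 without corn oil replicate 1 (25.5% of all probes), 1 without corn oil replicate 2 (27.4%), and 2 without treated replicate 2 (25.2%) or treated replicate 3 (25.5%), with Alas2 among them each time.

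**Figure D2:**
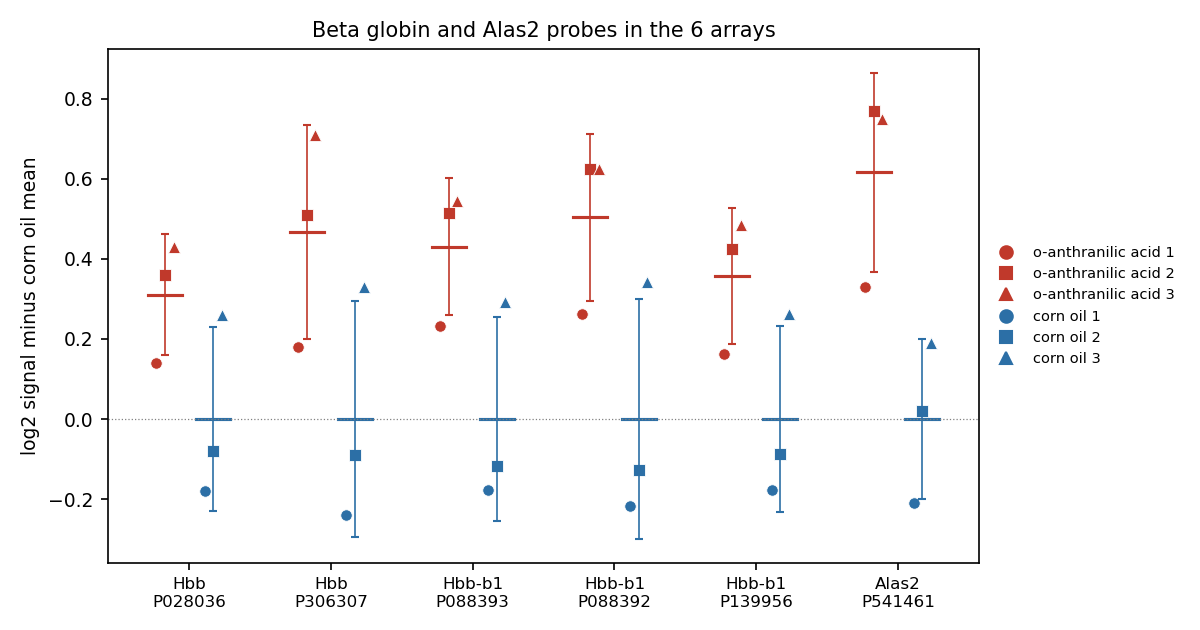
Log2 signal of the 5 beta globin probes and the Alas2 probe, measured from the corn oil mean of each probe, for 3 treated rats (red, left) and 3 corn oil rats (blue, right). Each marker is 1 array, horizontal lines are means and vertical bars are SD. Corn oil replicate 3 lies above treated replicate 1 on the 5 globin probes and below it on Alas2.

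Alas2, the erythroid 5-aminolevulinate synthase that starts heme synthesis in red cell precursors, showed the largest difference among the members. Its probe (A_44_P541461, NM_013197) stood at 0.51, 0.95 and 0.93 in treated rats and at -0.03, 0.20 and 0.37 in corn oil rats. Every treated animal was above every corn oil animal, which held for 1 of the 14 probes, against 14.9% of all probes in either direction and 6.3% in this one. No member was lower in every treated animal, against 8.61% of all probes. The mean was 0.80 ± 0.25 in treated and 0.18 ± 0.20 in corn oil rats (SD, n = 3 each), a log2 difference of 0.62 ± 0.16 (SE) or 1.53-fold. Its unadjusted p was 0.00847 and its limma adjusted p 0.462, so it did not pass. With 1 array left out the difference lay between 0.51 and 0.76. Treated replicate 2 was the only array on its slide and scan. Within the slide of the other 5 arrays Alas2 differed by 0.54 and the 5 beta globin probes by 0.29 to 0.45. On that slide the corn oil arrays lay in row 1 and the treated arrays in row 2. Treatment and row therefore cannot be told apart there.

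Other globin genes were read from a list of 14 symbols, of which 7 had a probe and 6 were measured above background, by 9 probes. None passed the test, and the median log2 difference was 0.49. Of the 9 probes 6 had an unadjusted p under 0.05, all higher in treated rats (against 3.42% of all probes). On 2 probes the groups did not overlap, both higher in treated rats, against 6.3% of all probes. Hba-a1, an alpha globin (NM_013096), stood on probe A_64_P032499 at 8.53, 8.76 and 8.82 in treated rats and at 8.15, 8.21 and 8.54 in corn oil rats, a difference of 0.40 ± 0.14 (SE). The other Hba-a1 probe, A_64_P032502, read 4.18, 4.54 and 4.76 in treated rats, against 3.63, 3.70 and 4.07 in corn oil rats, with no overlap and a difference of 0.70 ± 0.19. Hba-a1 thus ranked the animals nearly as beta globin did, with corn oil replicate 3 the highest of its group. Hba-a3 probes differed by 0.50 ± 0.14 and 0.56 ± 0.35, the second with overlapping groups and between 0.30 (without corn oil replicate 2) and 0.87 (without treated replicate 3). The latter probe ranked the animals otherwise, at 0.48, 0.69 and -0.33 in treated rats and -0.21, -0.82 and 0.18 in corn oil rats. The Hbb-bs probe differed by 0.54. Of the embryonic Hbe2 probes, 1 differed by 0.38, with means of -1.91 in treated and -2.29 in corn oil rats. The other differed by 0.49, with means of 6.2 and 5.71. How much of either signal came from Hbe2 itself was not tested. Hbg1 and embryonic Hbz differed by -0.01 ± 0.31 and -0.62 ± 0.38 (SE) without passing. Both were dim, with corn oil means of -5.09 and -4.26. Another Hbz probe and the 2 probes of embryonic Hbe1 were not well above background on any array.

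Markers of red cells and their precursors beside the members were 30 genes, of which 21 were measured by 39 probes. The median log2 difference was 0.09, and at an unadjusted p under 0.05 there were 4 probes higher (against 3.42% of all probes) and 2 lower (against 5.03%) in treated rats, none passing the adjusted test. Rhd, a red cell membrane protein, differed by 0.59 ± 0.18 (SE) with no overlap, and 1 of 3 Tfrc probes, for the transferrin receptor, by 0.35 ± 0.14. Klf1 and Tal1, transcription factors of erythroid cells, each had 1 probe lower in treated rats without overlap, at -0.47 and -0.46 (-0.17 and -0.37 with normexp background correction), and other probes at 0.37 for Klf1 and between -0.11 and 0.19 for Tal1. Slc4a1, the anion exchanger of red cells and of renal intercalated cells, stood at 0.29 and 0.25 on its 2 probes with overlapping groups, at 0.07 and 0.05 without treated replicate 3 and at 0.48 and 0.47 without treated replicate 2. Of the 39 probes 1 was higher and 2 were lower without overlap, against 6.3% and 8.61% of all probes. Gata1 and Rhag, which mark erythroid precursors, were not well above background on any array. The summed signal over the 39 probes, in multiples of the 75th percentile, ranged from 112.1 to 129.2 in treated and from 106.6 to 123.3 in corn oil rats. Of that sum 67.6% to 71.3% in treated and 72.1% to 74.6% in corn oil rats was Bcl2l1, a survival gene of many cell types, so the sum says little of red cells. The mean log2 signal over the 39 probes, in which each counts alike, was -1.99, -1.92 and -1.99 in treated rats and -2.08, -2.11 and -2.20 in corn oil rats.

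Leukocyte and platelet markers, which travel in the same blood, had a median log2 difference of 0.02 over 20 probes of 13 genes. None of the 20 probes had an unadjusted p under 0.05 or separated the groups, and their differences ran from -0.24 for Pf4, a platelet chemokine, to 0.28 for S100a8, a neutrophil protein. Their summed signal ranged from 90.6 to 117.5 in treated and from 105.5 to 128.4 in corn oil rats, and 94.7% or more of it on every array was lysozyme, Lyz2. Their mean log2 signal was -2.16, -1.82 and -2.00 in treated rats and -2.08, -1.98 and -1.92 in corn oil rats. The part of blood content in the globin values was not tested. Markers of proximal tubule, podocytes, distal tubule and collecting duct, and Umod, were present in both groups. No markers of the medulla were set against them, so the purity of the cortex was not tested. Their differences lay between -0.25 and 0.12 over 18 probes of 9 genes, with no unadjusted p under 0.05. On 1 probe each, Aqp2 and Nphs1 were lower in every treated rat, against 8.61% of all probes.

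**Figure D3:**
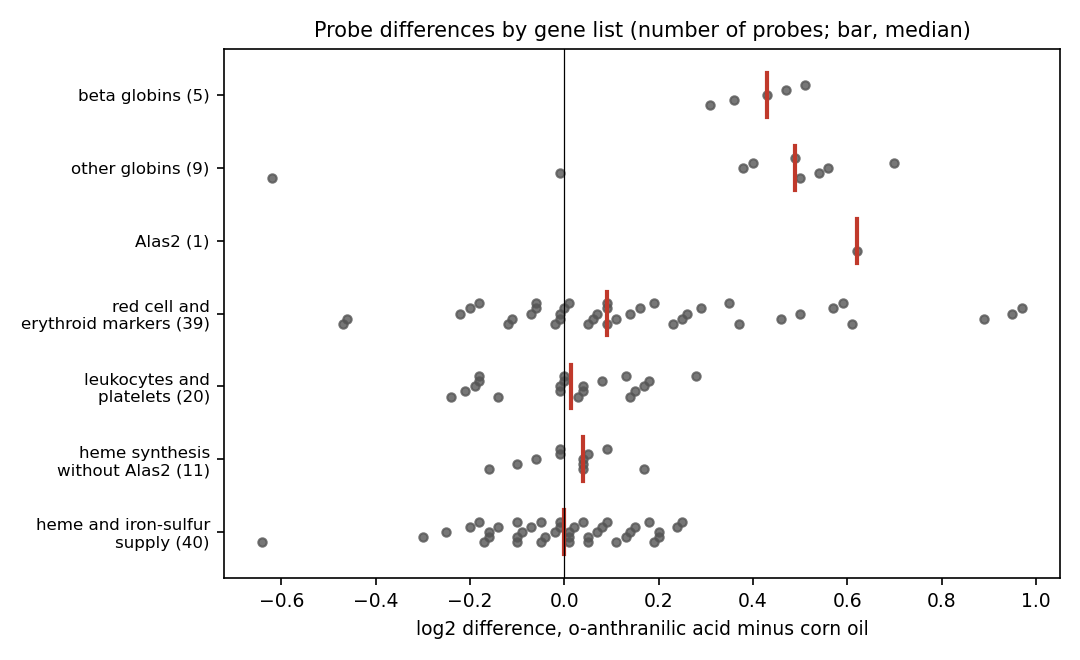
Log2 differences between treated and corn oil rats for every measured probe of 7 gene lists, with the number of probes in brackets; each grey point is 1 probe and the red bar is the list median. The beta globins lie between 0.31 and 0.51, whereas leukocyte and platelet probes lie between -0.24 and 0.28.

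Among the enzymes that tubule cells share, Alas1, the housekeeping 5-aminolevulinate synthase, had equal means, with a log2 difference of -0.01 ± 0.21 (SE, n = 3 per group; limma adjusted p = 0.997). Its probe (A_44_P1024981, NM_024484) stood at 5.26, 5.12 and 4.56 in treated rats and at 4.78, 4.96 and 5.22 in corn oil rats. The lowest value of the 6 was treated replicate 3 and the highest treated replicate 1, so the treated animals spanned 0.70 and enclosed the whole corn oil range of 0.44. The 95% interval of the difference ran from -0.52 to 0.51, and the estimate was 0.20 without treated replicate 3 and -0.14 without treated replicate 1. Differences within that interval are not excluded by these arrays.

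Treated replicate 3 stood apart for Hmox1, heme oxygenase, which breaks heme down and is raised by heme and by oxidative stress. Its level there was 5.10, while the other 2 treated animals had -1.42 and -1.49 and the corn oil animals -1.42, -1.56 and -1.47. Leaving that animal out gave a log2 difference of 0.03. Hmox2, the constitutive oxygenase, did not stand apart in that animal: its 2 probes differed by -0.09 and -0.20 between the groups, the second without overlap. Over the 17 probes of 10 measured genes of heme transport and breakdown the median difference was 0.09, and none passed. That Hmox2 probe alone had an unadjusted p under 0.05, against 5.03% of all probes lower. It alone separated the groups, against 8.61% of all probes lower. Alas1 and Hmox1 thus took their lowest and highest value in the same animal, and 1 animal allows no test of that pairing. Its Alas1 value, 4.56, was close to the next lowest, 4.78 in corn oil replicate 1, and did not stand apart as Hmox1 did.

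**Figure D4:**
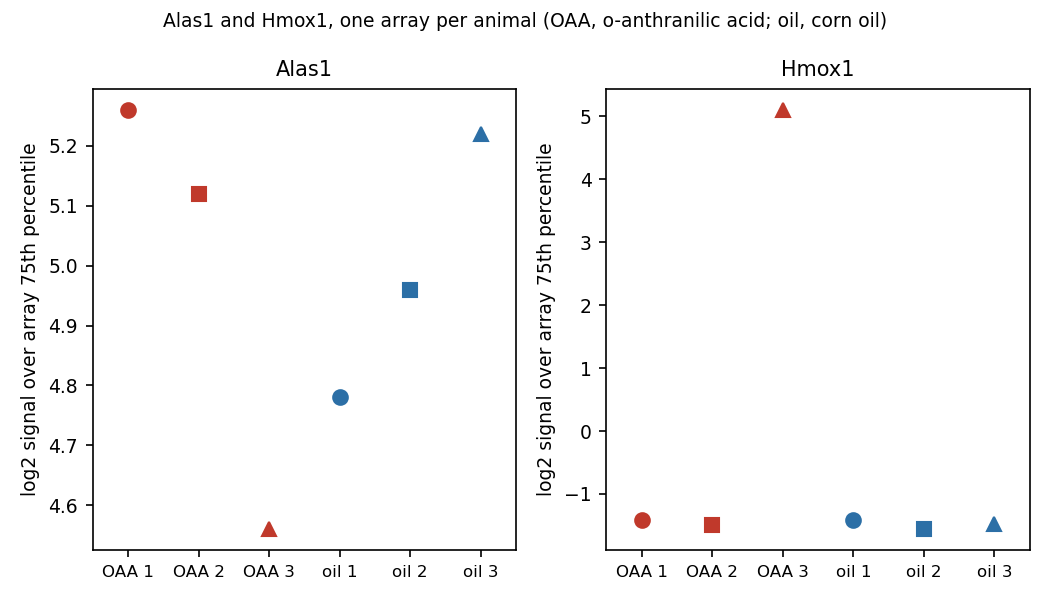
Log2 signal of the Alas1 probe (left) and the Hmox1 probe (right) on each array, over the 75th percentile of the array, with treated rats in red and corn oil rats in blue; the vertical scales differ. Treated replicate 3 is lowest for Alas1, at 4.56, and highest for Hmox1, at 5.10.

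Alad, which joins 2 molecules of aminolevulinate to porphobilinogen and is the classic target of lead, had a log2 difference of 0.04 ± 0.13 (SE; limma adjusted p = 0.952). Its probe (A_43_P11610, NM_012899) stood at 6.98, 7.10 and 6.93 in treated rats and at 7.01, 6.71 and 7.16 in corn oil rats. Corn oil replicate 2 was the lowest and corn oil replicate 3 the highest, so the treated values lay inside the corn oil range. Uros, uroporphyrinogen III synthase, which acts further along the path, differed by -0.16 ± 0.22 (SE) with overlapping groups, at -1.06, -1.29 and -1.81 in treated rats and -1.13, -1.04 and -1.50 in corn oil rats.

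Urod, the uroporphyrinogen decarboxylase that works in the cytosol, was among the steadiest members. Probe A_44_P1047715 (NM_019209) read 5.10, 5.17 and 5.09 in treated rats and 5.0, 5.13 and 5.09 in corn oil rats. Probe A_44_P1047723 read 4.03, 4.11 and 4.03 in treated rats and 3.94, 4.07 and 4.06 in corn oil rats. Both probes differed by 0.04 ± 0.07 (SE), with 95% intervals from -0.13 to 0.22 and from -0.14 to 0.22. Within either group the animals spanned no more than 0.13 on either probe.

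Cpox, coproporphyrinogen oxidase, lies in the mitochondrial intermembrane space and had the lowest difference of the members, at -0.10 ± 0.08 (SE; limma adjusted p = 0.769). Its probe (A_44_P1060345, NM_001037095) stood at -0.43, -0.30 and -0.39 in treated rats and at -0.37, -0.16 and -0.28 in corn oil rats, with overlap. Ppox, protoporphyrinogen oxidase (NM_001105968), had 2 probes of opposite sign, at 0.05 ± 0.12 and -0.06 ± 0.09. The first, A_64_P001255, read 2.49, 2.51 and 2.18 in treated rats, against 2.41, 2.39 and 2.23 in corn oil rats. The second, A_44_P231143, read -1.17, -1.14 and -1.34 in treated rats, against -1.12, -1.12 and -1.24 in corn oil rats. On both Ppox probes treated replicate 3 was the lowest of the 6 animals, as it was for Alas1.

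Fech, the ferrochelatase that closes the pathway by inserting iron, stood at 0.23, 0.36 and 0.36 in treated rats and at 0.24, 0.38 and 0.37 in corn oil rats (probe A_44_P443228, NM_001108434). Its log2 difference was -0.01 ± 0.08 (SE; limma adjusted p = 0.985), with a 95% interval from -0.21 to 0.19. The values of the groups interleaved and spanned 0.14 in all. For the 8 probes of Alas1, Alad, Urod, Cpox, Ppox and Fech together, 4 differences were above and 4 below 0, the median was 0.02, and none had an unadjusted p under 0.05 or separated the groups. Whether the globin and Alas2 differences were larger than those of the other enzymes was not tested.

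**Figure D5:**
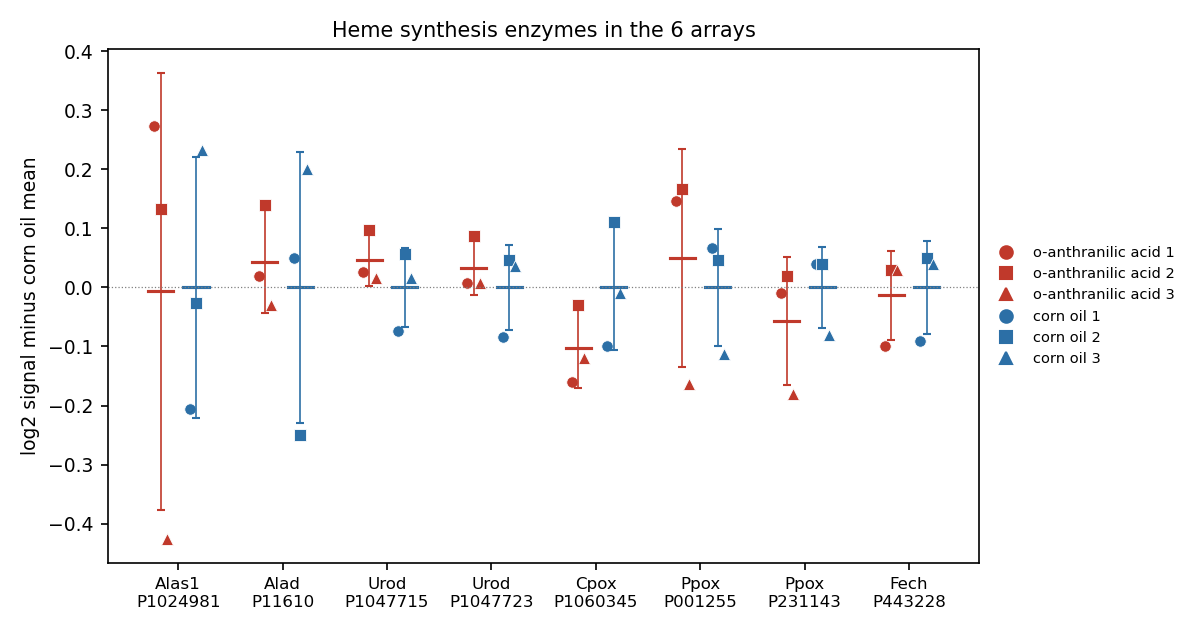
Log2 signal of the 8 probes of Alas1, Alad, Urod, Cpox, Ppox and Fech, measured from the corn oil mean of each probe, for treated rats (red, left) and corn oil rats (blue, right). Markers are arrays, horizontal lines are means and vertical bars are SD. All groups overlap, and the Alas1 values of treated rats spread over 0.70.

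Genes that supply the pathway with substrate, carriers and iron-sulfur clusters were 26, of which 23 were measured by 40 probes, with a median log2 difference of 0.00. None passed, and at an unadjusted p under 0.05 there were 3 probes higher and 3 lower, against 3.42% and 5.03% of all probes. The higher ones were Abcb6, a porphyrin transporter, at 0.24, Slc25a28, a mitochondrial iron carrier, at 0.20, and Slc25a39, a mitochondrial glutathione carrier, at 0.18. Other probes of these genes differed by 0.19 for Abcb6, by 0.15 and 0.20 for Slc25a28 and by 0.05 for Slc25a39. The lower ones were Slc6a9, a glycine transporter, at -0.64 on 1 of 3 probes (-0.28 with normexp background correction), Sucla2 at -0.20 and Suclg2 at -0.25, the last 2 being beta subunits of succinyl-CoA ligase. Their other probes differed by 0.25 and -0.16 for Slc6a9, by -0.10 for Sucla2 and by -0.18 for Suclg2. The alpha subunit of succinyl-CoA ligase, Suclg1, read 7.43, 7.41 and 7.37 in treated rats and 7.50, 7.49 and 7.63 in corn oil rats. Shmt2, a mitochondrial enzyme of glycine metabolism, differed by -0.17, and on both genes the groups did not overlap. Groups were separate on 10 of these 40 probes, 4 higher and 6 lower in treated rats, against 14.9% of all probes. The 4 higher probes were 2 of Abcb6 and 1 each of Slc25a28 and Slc25a39, and the lower ones included both Sucla2 probes.

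Regulators of Alas1 were 11 genes, all measured, by 18 probes with a median log2 difference of 0.00 and none passing. Bach1, a heme-binding repressor, differed by 0.22 (0.09 with normexp background correction) and 0.15 on 2 probes without overlap and by -0.16 on the third. Ppargc1a, a coactivator that raises Alas1 in fasted liver, read -0.56, -0.57 and -0.50 in treated rats and -0.37, -0.30 and -0.44 in corn oil rats, a difference of -0.17 with no overlap. Of the 18 probes 2 were higher and 1 was lower without overlap, against 6.3% and 8.61% of all probes. The clock repressor Nr1d1 differed by 0.76 with overlapping groups and a limma unadjusted p of 0.152.

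The genes whose centred profile over the 6 arrays was closest to a member were sought by root mean square difference. The candidates were 11228 named genes measured on all arrays, with the members left out. For Hbb the closest candidates were Hba-a1, at 0.048, then Dus4l and Septin4, at 0.076 and 0.079. The brightest probe of the member Hbb-b1 lay at 0.064 from the same Hbb probe. For Alas2 they were Hba-a3 and Hbe2, each at 0.096, and Il17c at 0.103. Among these candidates the nearest profile to Hbb and to Alas2 was thus that of an alpha globin. Dus4l, Septin4 and Il17c encode a tRNA-modifying enzyme, a septin and a cytokine. For Alas1 they were Cacna1e, Klrk1 and Thrb, at 0.072 to 0.079, and for Alad they were Rps21, Mchr1 and Syf2, at 0.033 to 0.040. With 6 arrays and this many candidates close profiles arise readily, and they are given as a description.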

How the data were processed

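Values came from 6 deposited scanner files, which hold spot intensity on a linear scale, which the authors extracted in Agilent Feature Extraction (version 10.7 in the submitters' processing notes): a background-subtracted, detrended signal not normalised between arrays. The value table that the authors deposited gives each probe as a ratio, the processed signal over the 75th percentile of the array, found by comparison with the scanner files. Its columns match scanner files of other replicate numbers within each group, shifted alike in both. Replicates are named by scanner file. Of 61657 non-control probes, 84 external controls and 47 outlier-flagged probes were left out. No spot was saturated. Probes well above background were 63.7% to 68.3% on treated and 66.0% to 69.3% on corn oil arrays. Log2 signals minus the 75th percentile of each array were fitted in limma 3.58.1 (R 4.3.3; tested on simulated data) over the 41551 probes that 3 or more of the 6 arrays showed well above background, with Benjamini-Hochberg adjustment at 0.05. The number of arrays limits precision (median SE 0.11). Accessions were matched without versions to RefSeq symbols (27435 probes named). Members and gene lists were chosen with earlier results of these data known, and motifs after the sequences were read. Named genes were all members, list genes with an unadjusted p under 0.05 or separate groups, fixed reference genes and the 3 closest profiles of 4 members. Some genes of the lists that this rule names are not reported here. Alternatives covered background correction, scaling, filters, probe choice, variance model, array weights, blocks and arrays left out.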

Additional observations from a re-analysis of the deposited data

How the results depend on the processing

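In 18 alternative settings none of the 14 member probes passed the adjusted test, and the 5 beta globin probes, Alas2, the alpha globin probes and 1 of 2 Urod probes kept a positive difference wherever they were tested. The lowest limma adjusted p of Alas2 over the settings was 0.371. Over all probes limma called 0 as reported, and 6 with normexp background correction (on median signals, as the files hold no mean spot signal), 6 with eBayes set to trend and robust, 1 with probes well above background on all 6 arrays and 4 with the slide as a block, which is the fit without treated replicate 2, alone on its slide and scan. With 1 array left out the calls numbered 0 to 4. Scaling moved the median of all probes by less than 0.1.

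Members with differences near 0 changed sign: Fech was 0.04 with normexp and 0.00 with array weights, Alas1 0.05 with array weights, and Alad and 1 Ppox probe -0.01 each with the slide as a block. With 1 array left out Alas1 ranged from -0.14 to 0.20, Alad from -0.08 to 0.14, Fech from -0.06 to 0.03, the Ppox probes from -0.01 to 0.15 and from -0.10 to 0.01, the dimmer Urod probe from 0.00 to 0.06 and Uros from -0.33 to 0.05. The cause was not tested.

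Members with an unadjusted p under 0.05 numbered 1 to 6 over the settings. With the replicate number as a block limma called 0 probes and 6 members had an unadjusted p under 0.05. The labels do not say whether these numbers pair the animals. Deviations of same-numbered animals correlated at 0.03, -0.08 and 0.00 across probes. With 3 animals per group these correlations cannot decide whether the animals were paired. Signal over background limits dim probes such as Klf1, whose difference of -0.47 was -0.17 with normexp.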

Other observations

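Genes of the oxygen-sensing and erythropoietin system were 12, of which 10 were measured by 20 probes, with a median log2 difference of -0.09 and none passing the adjusted test. Egln3, a hypoxia-induced prolyl hydroxylase, stood at -0.87, -0.98 and -1.0 in treated rats and at -2.00, -1.40 and -1.52 in corn oil rats, with no overlap and a log2 difference of 0.69 ± 0.16 (SE; limma adjusted p = 0.453). Of other genes that hypoxia induces, Ndrg1 and Bnip3 differed by -0.18 and -0.10 without overlap, each on its brighter probe. The 6 Vegfa probes lay between -0.17 and -0.02, and Adm stood at 0.02. Of the 20 probes 1 was higher and 2 were lower without overlap, against 6.3% and 8.61% of all probes. Epo, the kidney hormone that drives red cell production, had 2 probes, well above background on 0 and on 2 of the 6 arrays, so its level was not measured here.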
